A study of Homo sapiens with 6 samples.

Results

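The genes described here encode the proteins of the mitochondrial ribosome. They were found by symbol: every probe set whose platform annotation held MRPL or MRPS followed by digits and at most 1 letter, with antisense genes and pseudogenes left out. This gave 143 probe sets for 77 genes, 49 named for the large subunit (MRPL) and 28 for the small subunit (MRPS), among 19777 genes on the array. Each gene was represented by its brightest probe set, judged on all 6 arrays. The cells were HCT116, an established human colorectal carcinoma line. In 1 group the cells were transfected with a CDK4 siRNA pool and 1 CDK6 siRNA, each at 30 nM. The control group received 30 nM each of a non-targeting pool and a negative control siRNA, with the same lipid reagent. The medium was replaced after 24 h, and total RNA was taken 96 h after transfection, with 3 arrays per group. The comparison asks how expression of these genes differed when both kinases were targeted.

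The mitochondrial ribosome sits in the mitochondrial matrix and makes the few proteins that mitochondrial DNA encodes, all of them core subunits of the oxidative phosphorylation complexes. Its ribosomal RNAs come from mitochondrial DNA, but all of its proteins are encoded in the nucleus, made on cytosolic ribosomes and imported. Many descend from proteins of the bacterial ribosome, and the rest were added in the mitochondrial lineage. The large subunit joins amino acids and holds the exit tunnel, while the small subunit reads the mRNA.

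Expression is given as log2 RMA values, and differences are CDK4/6 siRNA minus control siRNA. RMA equalises the distributions of the arrays, so a difference is measured against most other probe sets. A gene was called when its limma adjusted p lay under 0.05 over all 19777 genes. Array medians lay between 5.36 and 5.39, and arrays correlated at 0.998 with others of their group and at 0.991 to 0.994 with those of the other group, over genes. Both siRNA targets were lower: CDK6 fell to 34% of the control level (limma adjusted p = 7.19e-06) and CDK4 to 62.2% (limma adjusted p = 0.000431), each with a two-sided exact permutation p of 0.1, the smallest that 3 arrays against 3 allow. Of 6 colorectal epithelial markers 5 had mean levels of 10.42 to 13.53 in both groups, while VIL1 was dim at 5.02 and 5.09. Their array means ran from 11.02 to 11.12 in controls and from 11.16 to 11.17 in CDK4/6 siRNA cells, with KRT8 and KRT18 called higher and CDH1 lower, and their part in the results was not tested. The fibroblast, leukocyte and endothelial markers had summed levels that overlapped between groups, with array means of 5.56 to 5.84, 4.29 to 4.55 and 5.18 to 5.37. Among them COL1A1, the brightest fibroblast marker, was called lower, at 8.09 in controls and 7.59 in CDK4/6 siRNA cells (limma adjusted p = 0.000311), and its part in the results was not tested. Control replicate 3 stood apart for the genes described here: it was the lowest of the 6 arrays for 61 of 77 (79.2%), against 24.9% of all genes. Among called genes the share was 47 of 50 here, beside 68.6% of all genes called higher. Results are therefore also given without it.

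Mitochondrial ribosomal protein genes were higher after CDK4/6 siRNA in both subunits, and limma called none lower. Of 77 genes, 50 rose (64.9%) and 0 fell, with 27 not called. The background was 14% of all genes called higher and 12.9% called lower. These genes all had mean levels of 7.75 or more, above the median of all genes (6.47). Among the 6839 genes at least as bright as the dimmest of them, 27.3% were called higher and 22.3% lower. Their median log2 fold change was 0.27, or 1.21-fold, beside a median of -0.0011 over all genes. All 50 called genes had 3 values in CDK4/6 siRNA cells above all 3 control values. Counted over the 77 genes, 57 were separated in this direction and 3 in the other, beside 20.6% and 20.3% of all genes. The rises were modest: 6 of the 50 reached 1.5-fold, a size of rise that 2.32% of all genes were called at. Without control replicate 3, 40 genes rose and 0 fell, with a median of 0.23, beside 11.2% and 10.3% of all genes. At an unadjusted p under 0.05, 54 genes lay above 0 and 2 below it, beside 18.4% and 17.8% of all genes. More cells in a given state and more RNA per cell cannot be told apart in these bulk samples.

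**Figure D1:**
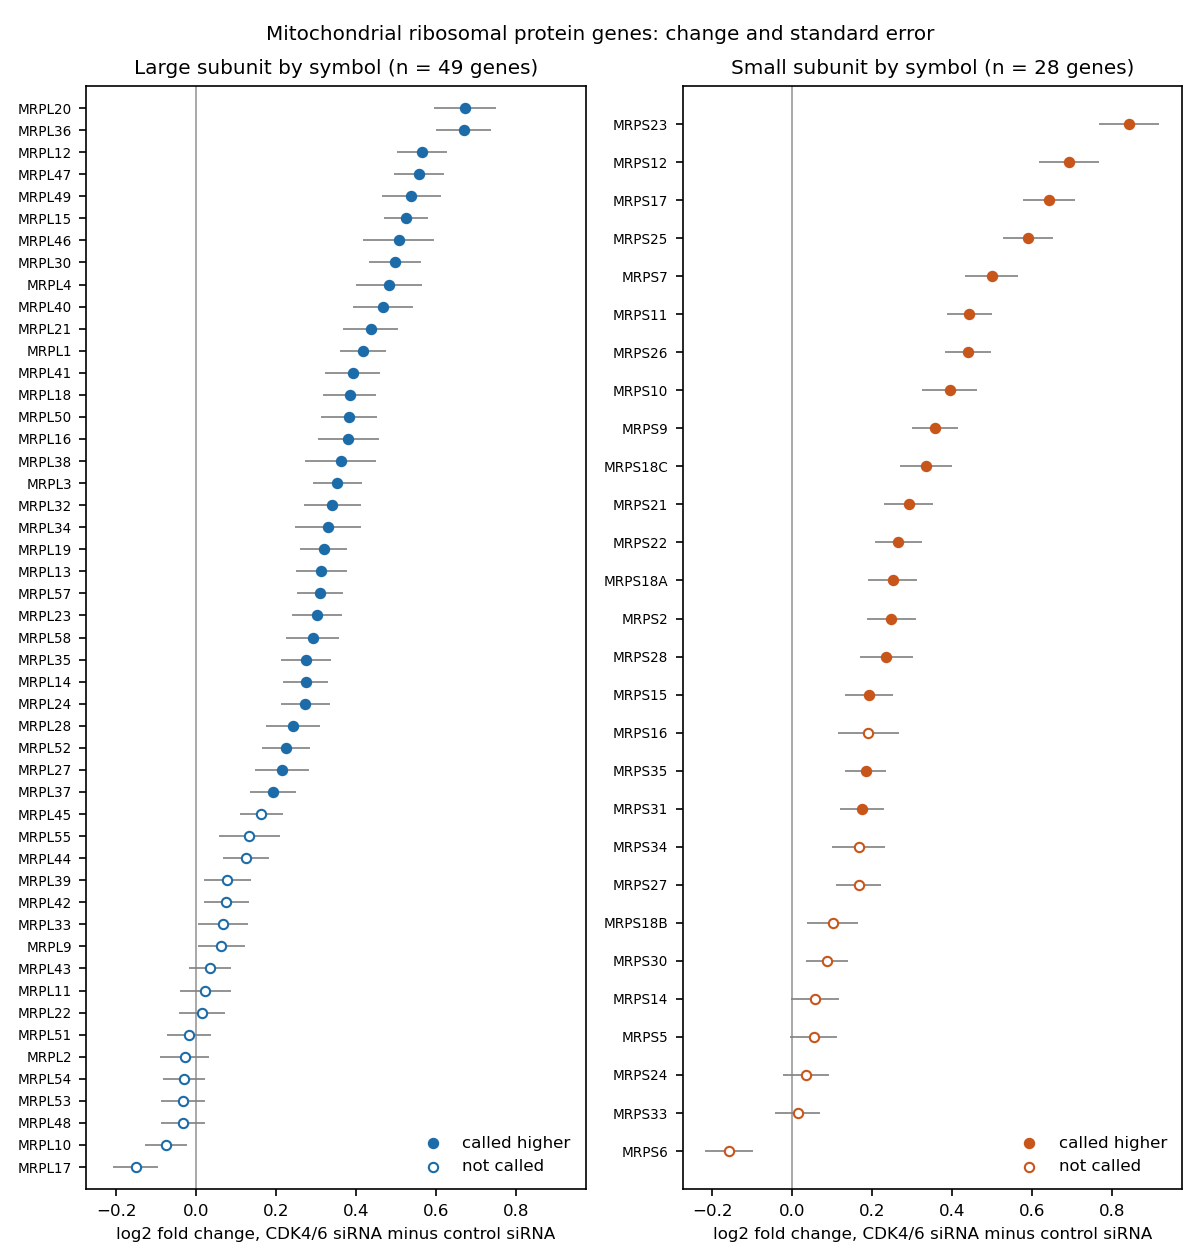
Log2 fold change (horizontal axis, CDK4/6 siRNA minus control siRNA) of each of the 49 large subunit and 28 small subunit genes, with its limma standard error as a bar (n = 3 arrays per group). Filled points are the 50 genes called higher and open points the 27 not called; the values run from -0.16 for MRPS6 to 0.84 for MRPS23.

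The scale of all genes bears on the size of these rises. The hybridisation spike-ins, control RNAs added to the hybridisation mix, had array means of 10.24 to 10.27 in controls and 10.08 to 10.18 in CDK4/6 siRNA cells. Scaling the arrays to these spike-ins moved the all-gene median to 0.11. All genes were then called 4730 higher and 1320 lower, against 2762 and 2545 as deposited. On that scale 57 of the 77 genes rose, 0 fell, and their median was 0.38, while 23.9% of all genes were called higher and 6.67% lower. Added only to the hybridisation mix, the spike-ins do not follow the amount of RNA per cell. The scaling was also applied to values already normalised by RMA, so it is not an absolute scale.

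The 12 largest rises given with all values were taken from called genes whose groups did not overlap, so their separation was part of the choice. The largest rise was that of MRPS23, a small subunit protein found in mitochondrial but not bacterial ribosomes. Its 3 control values were 11.20, 11.15 and 10.93, and its CDK4/6 siRNA values 11.93, 11.92 and 11.94. The groups were far apart, and the CDK4/6 siRNA values lay close together. MRPS23 rose by 0.84 (1.79-fold, SE 0.075, limma adjusted p = 0.000123), and by 0.76 without control replicate 3. A dimmer second probe set, at a mean level of 6.88, gave 0.32 and did not pass (limma adjusted p = 0.0567 over all probe sets).

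MRPS12, the protein of the decoding centre where codon and anticodon are matched, came next. Control values were 10.57, 10.54 and 10.36, and CDK4/6 siRNA values 11.26, 11.10 and 11.17, with no overlap. The rise was 0.69 (1.61-fold, SE 0.074, limma adjusted p = 0.000267). Of its 4 probe sets, 3 rose (by 0.69, 0.61 and 0.53), and the dimmest, at 6.11, gave 0.087 and did not pass. MRPL20, the counterpart of an early-binding protein in assembly of the bacterial large subunit, had control values of 10.81, 10.66 and 10.51 and CDK4/6 siRNA values of 11.32, 11.30 and 11.38. Here too the groups did not overlap, although the controls were spread over a wider range. MRPL20 rose by 0.67 (1.59-fold, SE 0.078, limma adjusted p = 0.000385). Its 2 other probe sets were dim, at 4.34 and 4.25, and gave 0.014 and 0.093 with no call.

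The promoters of these 3 genes are shown because they moved furthest, with the 3 motifs searched in all promoters in capitals. The windows are from RefSeq on GRCh38.p14, run 5′ to 3′ on the gene's own strand from 250 bases before the annotated start to 50 after it, and lie at chr17:57849995-57850294 on the minus strand (MRPS23), chr19:38930694-38930993 on the plus strand (MRPS12) and chr1:1407244-1407543 on the minus strand (MRPL20).
MRPS23: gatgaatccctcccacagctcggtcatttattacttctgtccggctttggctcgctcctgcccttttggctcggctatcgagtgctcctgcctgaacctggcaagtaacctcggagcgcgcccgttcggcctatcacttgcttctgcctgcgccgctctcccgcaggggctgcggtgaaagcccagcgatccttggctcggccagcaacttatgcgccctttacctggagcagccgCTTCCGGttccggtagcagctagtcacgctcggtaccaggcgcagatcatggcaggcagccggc
MRPS12: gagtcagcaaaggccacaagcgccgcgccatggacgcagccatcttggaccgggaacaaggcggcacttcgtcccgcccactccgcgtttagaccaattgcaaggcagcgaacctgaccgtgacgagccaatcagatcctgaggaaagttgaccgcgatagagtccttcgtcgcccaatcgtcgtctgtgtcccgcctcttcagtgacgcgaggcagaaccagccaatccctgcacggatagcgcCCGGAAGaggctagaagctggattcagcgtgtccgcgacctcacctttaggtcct
MRPL20: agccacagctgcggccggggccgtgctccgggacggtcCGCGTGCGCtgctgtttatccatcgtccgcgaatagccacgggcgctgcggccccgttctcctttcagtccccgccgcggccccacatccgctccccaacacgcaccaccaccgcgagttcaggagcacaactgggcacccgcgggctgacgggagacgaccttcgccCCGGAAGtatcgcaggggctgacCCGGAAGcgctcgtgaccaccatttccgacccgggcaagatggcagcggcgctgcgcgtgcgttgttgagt
The capitals mark CCGGAAG, the core bound by ETS factors, or its reverse complement in all 3 windows, and in MRPL20 also 1 match to GCGCANGCG, the core of the NRF1 motif, on the other strand. The ETS core began 14 bases before the annotated start in MRPS23, 5 bases before it in MRPS12, and 44 and 21 bases before it in MRPL20.

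Over all members, the ETS core was the commonest of the 3 motifs. RefSeq windows were found for 69 of the 77 genes. CCGGAAG, searched on both strands, was present in 29 of 69 (42.0%), beside 10.7% of all 27305 promoters of the same length and 14.4% of the 15386 that belong to genes in the fit. GCGCANGCG was present in 13 (18.8%), beside 8.05% and 11.2%. The E-box CACGTG, a sequence that MYC with MAX can bind, was present in 6 (8.70%), beside 7.43% and 8.90%. CACGTG reads the same on both strands. Each motif was counted by itself, so that 1 stretch could count for more than 1 motif, and a match is only a stretch of sequence. The shares were also counted by call. The ETS core was in 20 of 44 that rose (45.5%) and 9 of 25 not called (36%), the NRF1 core in 8 (18.2%) and 5 (20%), and the E-box in 4 (9.09%) and 2 (8%). The 6 genes with an E-box were MRPL36 (0.67), MRPL49 (0.54), MRPS18C (0.33) and MRPL37 (0.19), which rose, and MRPL45 (0.16) and MRPL22 (0.014), which were not called.

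In the large subunit, MRPL36, a small protein with a bacterial counterpart, had control values of 10.83, 10.83 and 10.64 and CDK4/6 siRNA values of 11.42, 11.50 and 11.39. It rose by 0.67 (1.59-fold, SE 0.070, limma adjusted p = 0.000238). MRPL12 forms the flexible stalk that recruits the translation factors. Its values were 9.75, 9.75 and 9.61 in controls and 10.26, 10.22 and 10.32 in CDK4/6 siRNA cells, a rise of 0.57 (1.48-fold, SE 0.063, limma adjusted p = 0.000315). A second, dim MRPL12 probe set at 6.57 gave 0.26 (limma adjusted p = 0.0549 over all probe sets). Its neighbours at the stalk base were not called, with MRPL10 at -0.075 and MRPL11 at 0.023. MRPL47, which lies at the rim of the exit tunnel, had control values of 10.96, 10.93 and 10.78 and CDK4/6 siRNA values of 11.41, 11.45 and 11.48, and rose by 0.56 (SE 0.063). A dim MRPL47 probe set at 4.66 gave 0.32 and did not pass. The groups did not overlap for MRPL36, MRPL12 and MRPL47, by the probe sets whose values are given per array.

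MRPL49, a protein of the mitochondrial lineage, gave 9.51, 9.50 and 9.31 in controls and 10.03, 9.89 and 10.01 in CDK4/6 siRNA cells, and rose by 0.54 (SE 0.073). MRPL15 gave 10.20, 10.14 and 10.08 in controls and 10.68, 10.68 and 10.63 in CDK4/6 siRNA cells, and rose by 0.53 (SE 0.056). MRPL46 gave 8.48, 8.49 and 8.25 in controls and 8.98, 8.76 and 8.998 in CDK4/6 siRNA cells, and rose by 0.51 (SE 0.089). Control replicate 3 was the lowest of the 6 arrays for all 12 of the largest rises, and none of the 12 lost its call without it. MRPL49, MRPL15 and MRPL46 then rose by 0.47, 0.50 and 0.43. In the small subunit, MRPS17, the counterpart of a bacterial rRNA-binding protein, gave 9.46, 9.42 and 9.26 in controls and 10.02, 10.04 and 10.01 in CDK4/6 siRNA cells, and rose by 0.64 (1.56-fold, SE 0.065, limma adjusted p = 0.000209). MRPS25, of the mitochondrial lineage, gave 8.42, 8.34 and 8.25 against 8.98, 8.88 and 8.93, and rose by 0.59 (SE 0.063); its 2 other probe sets rose too, by 0.44 and 0.23. MRPS7, whose bacterial counterpart starts the assembly of the head of the subunit, gave 9.88, 9.77 and 9.70 against 10.29, 10.22 and 10.33, and rose by 0.50 (SE 0.066). None of the groups overlapped, as the choice of these genes required.

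The count was also taken under other settings, each beside its own background. At an adjusted p under 0.01, 36 genes rose, where 9.12% of all genes were called higher and 7.70% lower. With no moderation of the variance 41 rose, beside 10.7% higher and 9.66% lower. With the replicate number as a block 43 rose, beside 12.5% and 11.4%. With the mean over a gene's probe sets 52 rose, beside 12.9% and 11%. Under the 4 other scalings the call of 13 genes changed in at least 1. Of the 50 genes, 32 kept their call in every alternative that retained their probe set. Without the dimmest 30% of genes MRPS6 and MRPL17 were called lower, beside 21.4% of the remaining genes called higher and 20.2% lower.

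**Figure D2:**
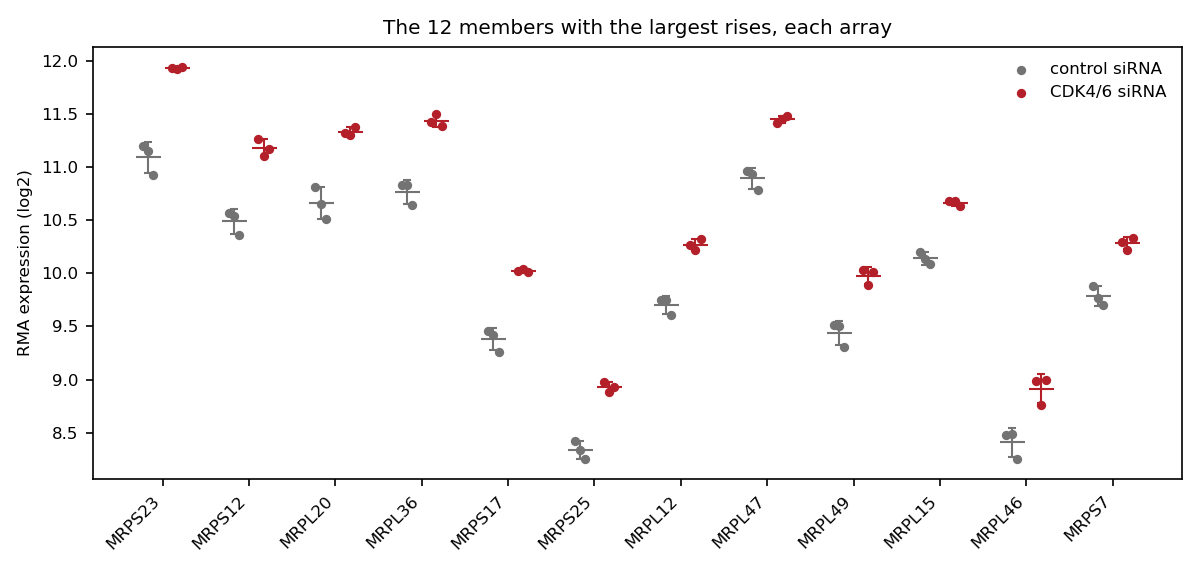
RMA expression (log2) of the 12 genes with the largest rises, with each array as a point and the group mean ± SD as a bar (n = 3 arrays per group). In every gene all 3 CDK4/6 siRNA values lie above all 3 control values, which the choice of genes required. For MRPS23 they run from 10.93 to 11.20 in controls and from 11.92 to 11.94 in CDK4/6 siRNA cells.

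Genes of both subunits rose, in similar shares. By symbol, 32 of 49 large subunit genes (65.3%) and 18 of 28 small subunit genes (64.3%) rose. Their median log2 fold changes were 0.29 (1.22-fold) and 0.24 (1.18-fold). The quartiles ran from 0.076 to 0.39 for the large subunit and from 0.15 to 0.40 for the small subunit. Human MRPS18A and MRPS30 are known to sit in the large subunit despite their names. Counted by place, 33 of 51 large subunit genes (64.7%) and 17 of 26 small subunit genes (65.4%) rose, with medians of 0.27 and 0.24. MRPS18A itself rose by 0.25 and MRPS30 gave 0.086 with no call, although its 2 dimmer probe sets, at 7.95 and 7.94, rose by 0.51 and 0.66. The difference between the subunits was not tested, and the order of the medians turned with the choice of probe sets: when all probe sets of a gene were averaged they were 0.24 for the large and 0.27 for the small subunit.

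Per array, the mean over the 49 large subunit genes was 9.91, 9.89 and 9.78 in controls and 10.12, 10.11 and 10.14 in CDK4/6 siRNA cells. The mean over the 28 small subunit genes was 10.13, 10.10 and 10.01 in controls and 10.37, 10.35 and 10.36 in CDK4/6 siRNA cells. The means did not overlap between groups, and the controls were spread more widely, with SDs of 0.069 and 0.061 against 0.015 and 0.0093. The difference between groups was 0.26 for the large and 0.28 for the small subunit. The subunits moved together on each array: the large minus the small mean lay between -0.25 and -0.21 on all 6.

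**Figure D3:**
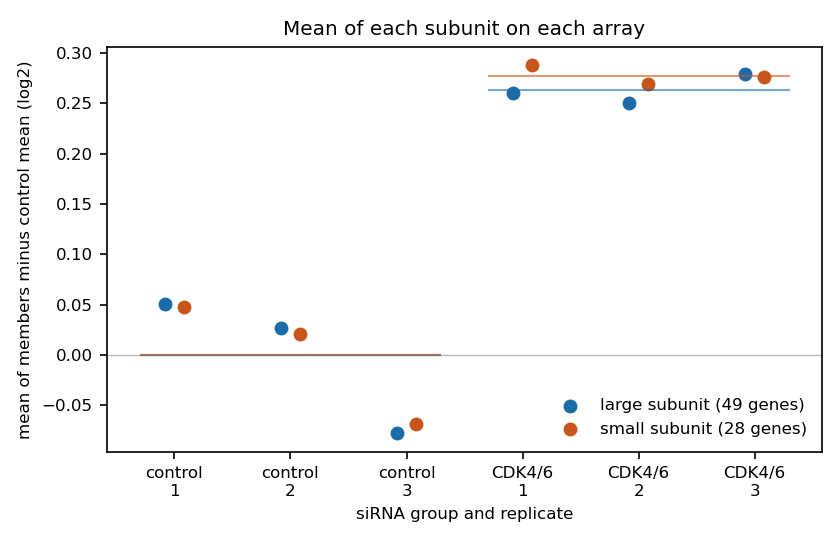
Mean log2 expression of the large and small subunit genes on each array, minus the mean of the 3 control arrays (vertical axis); lines are group means. Control replicate 3 lies at -0.078 and -0.069, and the CDK4/6 siRNA arrays lie between 0.25 and 0.29.

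Other large subunit genes are given by the place or role known for their proteins. Beside MRPL47, the exit tunnel rim held MRPL23 (0.30) and MRPL24 (0.27), which rose, while MRPL22, whose bacterial counterpart lines the tunnel, gave 0.014. MRPL45, which ties the ribosome to the inner membrane, gave 0.16 and missed the threshold (limma adjusted p = 0.0528). MRPL4, which also reaches the tunnel, rose by 0.48, and all 3 of its probe sets rose, by 0.48, 0.71 and 0.68. MRPL3, MRPL16 and MRPL27, which lie near the peptidyl transferase centre, rose by 0.35, 0.38 and 0.22, while MRPL2, whose bacterial counterpart also lies there, gave -0.029 with overlapping groups and was not called. MRPL58, a peptidyl-tRNA hydrolase built into the subunit, rose by 0.29. MRPL18, which has a known stress-induced cytosolic form, rose by 0.38, and MRPL41, also described as a partner of BCL2, rose by 0.39. These roles were set beside the genes after their values were known. Log2 fold changes of the 32 called large subunit genes ran from 0.19 (MRPL37) to 0.67.

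In the small subunit, MRPS11 rose by 0.44, MRPS26 by 0.44, MRPS10 by 0.39 and MRPS9 by 0.36. MRPS18C, the family member that occupies the place of the bacterial protein, rose by 0.33, whereas its relative MRPS18B gave 0.10 and was not called. A second MRPS18B probe set, at 9.86, rose by 0.25. MRPS22, a mitochondrial addition, rose by 0.26, and MRPS2 by 0.25. The smallest called rises in the small subunit were MRPS31 (0.17), MRPS35 (0.18) and MRPS15 (0.19), with limma adjusted p of 0.0446, 0.0276 and 0.0424. These 3, and MRPL27 of the large subunit, lost their calls in each of the 6 fits that left out 1 array.

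Of the 27 genes not called, 19 lay above 0 and 8 below it. The lowest were MRPS6, with control values of 10.42, 10.49 and 10.51 and CDK4/6 siRNA values of 10.39, 10.27 and 10.28, and MRPL17, with 10.44, 10.55 and 10.48 against 10.38, 10.35 and 10.29. In both genes every CDK4/6 siRNA value lay below every control value. MRPS6 gave -0.16 and MRPL17 -0.15, with limma adjusted p of 0.0851 and 0.0855. MRPL17 was called lower in 4 of the alternative fits and MRPS6 in 2 of them. The other 6 below 0 lay between -0.075 and -0.017. Of the genes above 0, MRPS16 gave 0.19, MRPS34 0.17 and MRPS27 0.17, with limma adjusted p of 0.106, 0.103 and 0.0587, and these misses do not show that the genes stayed level. A second MRPS16 probe set, at 8.115, rose by 0.61 (limma adjusted p = 0.000399 over all probe sets). The second MRPS27 probe set was dim, at 3.73, and gave -0.012 with no call.

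The 3 brightest representatives were those of MRPL3, MRPS24 and MRPS23, at mean levels of 12.12, 11.76 and 11.51. MRPL3 had control values of 12.03, 11.92 and 11.86 and CDK4/6 siRNA values of 12.28, 12.30 and 12.29. MRPS24, the counterpart of a bacterial protein at the mRNA entry, had 11.79, 11.75 and 11.69 against 11.82, 11.73 and 11.79. The first pair of groups was apart, while those of MRPS24 overlapped, with a difference of 0.035. The 3 dimmest were MRPL38, MRPL55 and MRPL4, at 7.75, 7.88 and 8.27. MRPL38 had 7.66, 7.64 and 7.41 against 8.06, 7.81 and 7.91 and rose by 0.36 (limma adjusted p = 0.0148), a call lost without CDK4/6 siRNA replicate 1 (0.29), where 11.7% of all genes were called higher and 10.8% lower. The MRPL38 call was also lost with no moderation of the variance (limma adjusted p = 0.1) and at the threshold of 0.01. MRPL55 had 7.88, 7.91 and 7.66 against 8.01, 7.94 and 7.90, with overlap, and gave 0.13. The MRPL55 value was 0.055 without control replicate 3, 0.0023 when its probe sets were averaged, and 0.24 after spike-in scaling, where it was called (limma adjusted p = 0.0377). Across the 77 genes the rank correlation between mean level and log2 fold change was -0.011, a description over genes measured on the same 6 arrays.

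Probe sets of one gene often differed in brightness and in call. Of 38 genes with more than 1 probe set, 6 had every probe set called higher, 22 had some called higher and others not called, and 10 had none called. No probe set was called lower. Of all 143 probe sets 70 rose, with p adjusted over all probe sets, where 8.86% were called higher and 8.17% lower in all. Among the 66 second and further probe sets 26 rose. The probe sets that stood for 45 genes carry a suffix that marks probes matching more than 1 transcript. On probe sets with plain names, 46 genes were measured and 25 rose, with 0 lower, beside 12.1% and 10.7% of all genes there. There MRPL20, MRPL23, MRPL35, MRPS15 and MRPS31 lost their calls and MRPL42, MRPS14 and MRPS16 gained them. MRPL53 and MRPS24 rest on a probe set annotated to a second gene as well, CCDC142 and the readthrough URGCP-MRPS24. Control values of MRPL53 were 9.96, 9.96 and 9.89, against 9.89, 9.88 and 9.94, which overlap. It gave -0.033, or 0.076 after spike-in scaling, with no call on either scale.

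Genes with a bacterial counterpart and genes of the mitochondrial lineage both rose. Of 45 with a bacterial counterpart 33 rose (73.3%), with a median of 0.31. Of 32 of the mitochondrial lineage 17 rose (53.1%), with a median of 0.18. MRPS18A and MRPS18B were counted in the mitochondrial lineage, although their relative MRPS18C was counted with the bacterial counterparts. For this family the split does not follow descent. The background share is the 14% given above for all genes, and the difference between these classes was not tested. MRPS23, MRPS25, MRPL49 and MRPL46 were the largest rises of the mitochondrial lineage.

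Other genes of mitochondrial translation rose more often than they fell, with 26 higher and 3 lower in 3 lists by function. Of 4 measured mitochondrial ribosome proteins with other names, 2 rose and 0 fell: PTCD3, which guides mRNA on the small subunit, rose by 0.23 and DAP3 by 0.19, while CHCHD1 gave 0.11. Of 27 factors that assemble the particle or modify its RNA, 15 rose and 1 fell, with a median of 0.27. MTRES1 rose by 0.63, TRUB2, a pseudouridine synthase, by 0.60 and the helicase DDX28 by 0.55, whereas YBEY, an endoribonuclease, fell by 0.28. Of 16 measured translation factors 9 rose and 2 fell, with a median of 0.22. The elongation factor GFM1 rose by 0.74 and its relative GUF1 by 0.57, as did SLIRP, a partner of LRPPRC in keeping mitochondrial mRNA stable, by 0.57. The initiation factor MTIF3 fell by 0.31 and MTRFR, of the release factor family, by 0.28. YBEY, MTIF3 and MTRFR were singled out after their values were seen. After spike-in scaling 33 genes of these lists rose and 0 fell, against 26 and 3 as deposited, on a scale that moved the calls over all genes from 14% higher and 12.9% lower to 23.9% and 6.67%.

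Beside these, 7 of 15 measured mitochondrial aminoacyl-tRNA synthetases rose and 2 fell, with a median of 0.13. Of 33 complex I subunits 10 rose (30.3%) and 1 fell, with a median of 0.075. For each list here the background over all genes was 14% called higher and 12.9% called lower. The complex I probe sets all had mean levels of 9.37 or more. Among the 6839 genes at least as bright as the dimmest mitochondrial ribosomal protein gene, 27.3% were called higher and 22.3% lower. The complex I share called higher lay near that background, while the share called lower (3.03%) lay below it. Of 62 cytosolic ribosomal protein genes, paralogs included, 3 rose and 2 fell, with a median of -0.0079. The 3 that rose were the paralogs RPL7L1 (0.34), RPL22L1 (0.24) and RPL26L1 (0.22). Those that fell were RPL10L (-0.29), also a paralog, and RPLP2 (-0.23), and all 5 were named after their values were seen. The 2 that fell rest on dim probe sets, below the median of all genes (6.47). RPL10L lay at 6.15 in controls and 5.87 in CDK4/6 siRNA cells, and RPLP2 at 5.81 and 5.58. Such dim probe sets limit what can be said of these 2 genes. Mean levels of the cytosolic ribosomal protein probe sets had a median of 13.81, against 10.02 for the mitochondrial ones; the part of this brightness in the result was not tested. The differences between these lists were not tested either.

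**Figure D4:**
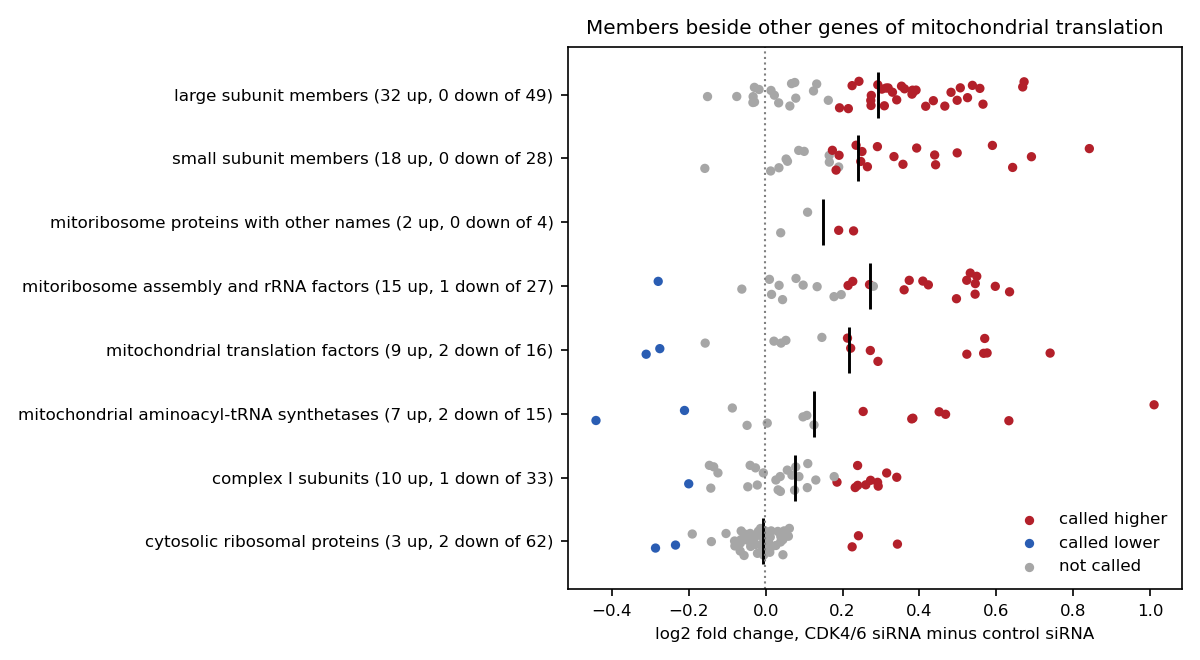
Log2 fold change (horizontal axis) of each gene in 8 lists, coloured by its limma call, with the list median as a black line and the median of all genes as a dotted line. The median lies at 0.29 and 0.24 for the large and small subunit and at -0.0079 for cytosolic ribosomal protein genes.

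Some of these genes start close to another gene on the opposite strand, and the calls of the measured neighbours are given beside the background. In the RefSeq windows, 28 of 69 genes had a gene starting within 1000 bases on the other strand, and 21 had such a neighbour measured on the array, in 20 pairs. In 1 pair both genes belonged to the mitochondrial ribosome: MRPL46 and MRPS11 start 320 bases apart, and rose by 0.51 and 0.44. Of the 19 other neighbours 5 rose, 2 fell and 12 were not called, with a median of 0.062, beside the background of 14% higher and 12.9% lower. Of all 19777 genes 14470 were not called. Among genes at least as bright as the dimmest mitochondrial ribosomal protein gene, 27.3% were called higher and 22.3% lower. The neighbours are few and their counts lie near these shares, so the counts are not read as a result about neighbours. Next to the 13 risen genes with such a neighbour, 3 neighbours rose, 0 fell and 10 were not called.

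MRPL49 starts 49 bases from FAU, which encodes a cytosolic ribosomal protein, and rose by 0.54, while FAU gave 0.062. MRPS12 starts 181 bases from SARS2, the mitochondrial seryl-tRNA synthetase, which gave -0.048 (limma adjusted p = 0.615) at a mean level of 7.25. MRPL30 starts 126 bases from MITD1, and the values were 0.50 and -0.10. Neighbours that rose were HIRA, a histone chaperone, by 0.68 beside MRPL40 (0.47), SKA3, of the kinetochore, by 0.38 beside MRPL57 (0.31), and PIERCE1 by 0.43 beside MRPS2 (0.25). PTCD2 (0.47) and EME2 (0.49) rose beside MRPS27 and MRPS34, which were not called. NCAPD2, a condensin subunit, fell by 0.43 beside MRPL51 (-0.017), and APBA3 fell by 0.23 beside MRPL54 (-0.029). The difference within a pair was not tested.

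**Figure D5:**
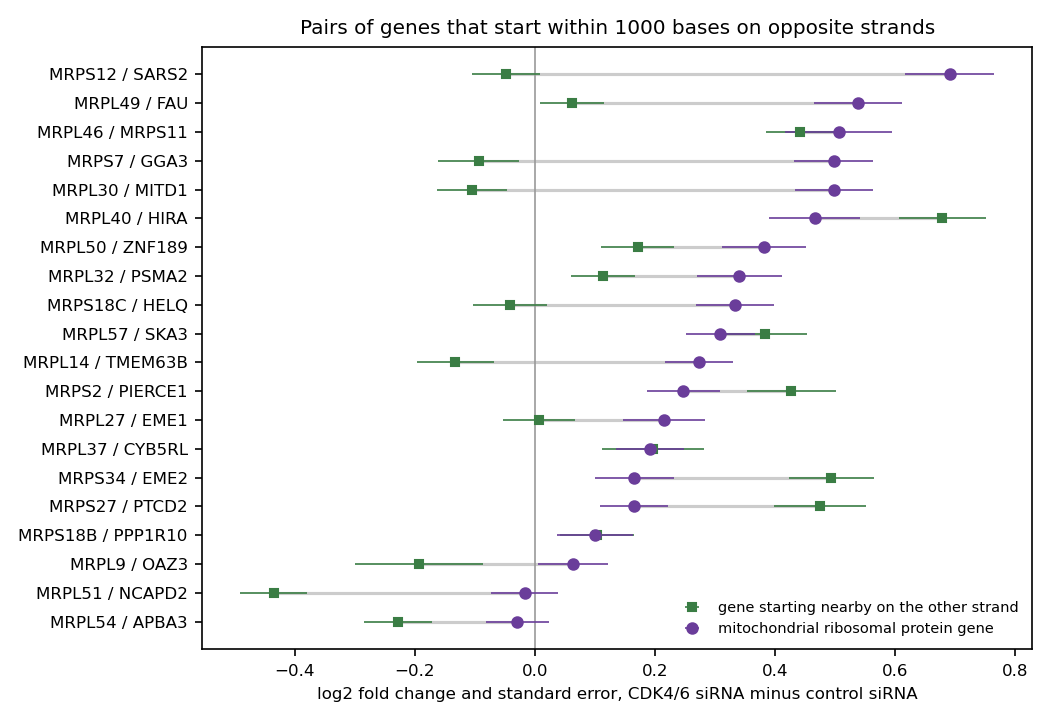
Log2 fold change with limma standard error (n = 3 arrays per group) for the 20 pairs of genes that start within 1000 bases of each other on opposite strands, with the mitochondrial ribosomal protein gene as a circle and its neighbour as a square. MRPS12 lies at 0.69 and SARS2 at -0.048, while MRPL46 and MRPS11 lie together at 0.51 and 0.44.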

How the data were processed

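Replicates are labelled biological, but separate cultures are not stated. Each p-value reflects only variation between arrays within groups, and limma draws each gene's variance toward a value estimated over all genes. The authors deposited log2 values made with RMA, per the submitters' processing notes; its version is not given in the sources used here. Of 54675 probe sets, 41097 had 1 symbol, 1801 several and 11777 none. A single-symbol probe set stood for each gene, and for members also 1 with several symbols. Group was the only term in limma 3.58.1 (R 4.3.3), with Benjamini-Hochberg adjustment over 19777 genes. Genes named with all values are the 12 largest rises (and up to 8 falls) among called members with no overlap, the 3 brightest, the 3 dimmest and those on a shared probe set; lists were named by smallest adjusted p. Members and lists were chosen with earlier results of these data known. The cytosolic ribosomal protein list leaves out pseudogenes and the kinase-like RPS6KL1. Start neighbours and the brightness-limited background were added after seeing the data. On simulated data with the same 19777 genes, 89% of 100 genes changed by 0.5 and 100% of 100 genes changed by 1 were called, with 6 false calls of 195. No other genes were changed there, whereas 26.8% of all genes were called in the data. The simulated noise was independent between genes, and no change as small as the members' median of 0.27 was simulated. The simulation therefore does not give the sensitivity or false calls for these genes. The number of arrays limits the precision. Alternatives covered scaling, probe set choice, filters, model options and each array left out. Motif matches and figures used Python 3.11.15 and matplotlib 3.10.9.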

Additional observations from a re-analysis of the deposited data

How the results depend on the processing

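The median over the 77 genes lay above 0 in every alternative run. With each array left out in turn, 40 to 46 genes rose (27 to 31 large, 12 to 15 small) and 0 fell, with medians of 0.23 to 0.29 (0.25 to 0.32 large, 0.20 to 0.26 small), and 4225 to 4726 genes were called in all. Plain-name probe sets gave 25 risen (17 large, 8 small) of 46 measured and a small subunit median of 0.17; fewer genes were tested there. Spike-in scaling moved the medians to 0.38 (large 0.40, small 0.35), and turned MRPL53 to 0.076; genes of the other lists called lower went from 3 to 0, or 1 with the mean of all probe sets. Members called lower were 1 (large 1) with array weights and with cyclic loess, and 2 (large 1, small 1) without the dimmest 30% of genes and with trend and robust options; the cause was not tested. At a threshold of 0.01, 3327 genes were called in all and 36 members rose. Values for the 18 named genes kept direction and call in 345 of 351 cases. However, 12 of the 18 were chosen as called rises. Some alternatives, such as no moderation of the variance, also leave the log2 fold change unchanged. Much of this count was therefore set in advance. The replicate number as a block gave 43 risen and 0 fallen; deviations of same-numbered arrays correlated at -0.010, -0.12 and -0.0066, and 0 of 3 controls correlated best with its own number, so the numbers were not treated as pairs. Depth here is brightness: dim second probe sets limit what they can show.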
